A study of Homo sapiens with 9 samples.

Results

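Kinesins are the motor proteins encoded by the KIF genes, and 41 of the 16772 genes in the deposited expression table belonged to them. They were taken by symbol, as every gene named KIF followed by a digit together with KIFC1, KIFC2 and KIFC3. By their known roles 13 serve mitosis and cytokinesis, 19 carry cargo or position organelles, and 9 act at cilia or have other roles. RNA was sequenced from DU145, an established human prostate carcinoma line of wild-type genotype per the labels, in 3 groups of 3 libraries. One group received the solvent DMSO alone, one H93 at 20 µM, and one 500 nM of SAHA, the histone deacetylase inhibitor vorinostat, each for 6 days with fresh medium every day. Both compounds were dissolved in DMSO, so every group carried the solvent. H93 is described by the series title as directed at UHRF1, a protein that brings the maintenance DNA methyltransferase to replicated DNA. The labels give the doses in units written as μm and nm, read here as micromolar and nanomolar. Whether the libraries of a group came from separate cultures is not stated, so a p-value here reflects only how far these libraries scatter, possibly for technical reasons alone. All results come from 1 cell line.

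Kinesins use ATP to step along microtubules. Most walk toward the plus end, those of the KIFC group toward the minus end, and some do not walk but take microtubule ends apart. In a dividing cell they build the spindle, align chromosomes and bundle the central spindle on which the cleavage furrow forms. Outside division they move vesicles, mitochondria, endosomes and ciliary parts, usually through light chains or adaptor proteins. Many genes of mitosis are transcribed late in the cell cycle, under the DREAM and MMB-FOXM1 complexes that bind a promoter element called the CHR (cell cycle genes homology region). The cytosolic counterpart of the kinesins is dynein, which works toward the minus end with its cofactor dynactin.

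Values are FPKM, fragments scaled for transcript length and library size, so levels can be set side by side between genes. The FPKM of a library summed to between 348656 and 355741, and 14910 to 15295 genes were above 0. Absolute depth was unknown, and low values put the libraries at 0.875 to 1 of the deepest. Replicates had Pearson correlations across genes of 0.9976 to 0.9983 on the log2 scale. The epithelial markers KRT8 (664 to 737) and KRT18 (653 to 714) were high in all 9 libraries, and the other 3 epithelial markers differed between groups. KRT19 had means of 169 in DMSO, 420 in H93 and 326 in SAHA, EPCAM 67.1, 30.4 and 37.8, and the cadherin gene CDH1 13.3, 4.34 and 5.09. Of 7 measured markers of blood, endothelium and stroma the sum was 24.4 to 25.3 in DMSO, 31.3 to 33.0 in H93 and 35.7 to 39.3 in SAHA. Most of that sum was CD68 (22.1 to 34.9), whereas the leukocyte gene PTPRC stayed at or under 0.0179 and the endothelial gene PECAM1 at or under 0.0377.

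Kinesin levels spanned more than 3 orders of magnitude, and the most abundant transcripts belonged to dividing-cell motors and to a few transport motors. In DMSO the highest means were KIFC3 (77.1 ± 1.73, SD, n = 3), KIF20A (64.6 ± 0.927), KIFC1 (55.5 ± 1.44), KIF23 (54.3), KIF5B (51.7), KIF22 (50.7) and KIF1C (44.8). KIFC1 and KIF23 overlapped between their DMSO libraries, and so did KIF5B and KIF22, so the order within those pairs is not resolved. The dividing-cell class held 57.4% to 57.9% of all kinesin FPKM in the DMSO libraries, 54.3% to 54.7% in H93 and 56.2% to 57.0% in SAHA. Its summed FPKM was 379 to 380 in DMSO, 329 to 335 in H93 and 355 to 357 in SAHA, with no overlap between the groups. The transport class summed to 254 to 260, 257 to 258 and 249 to 257 in the same order, so its total moved little while single members moved in both directions.

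**Figure D1:**
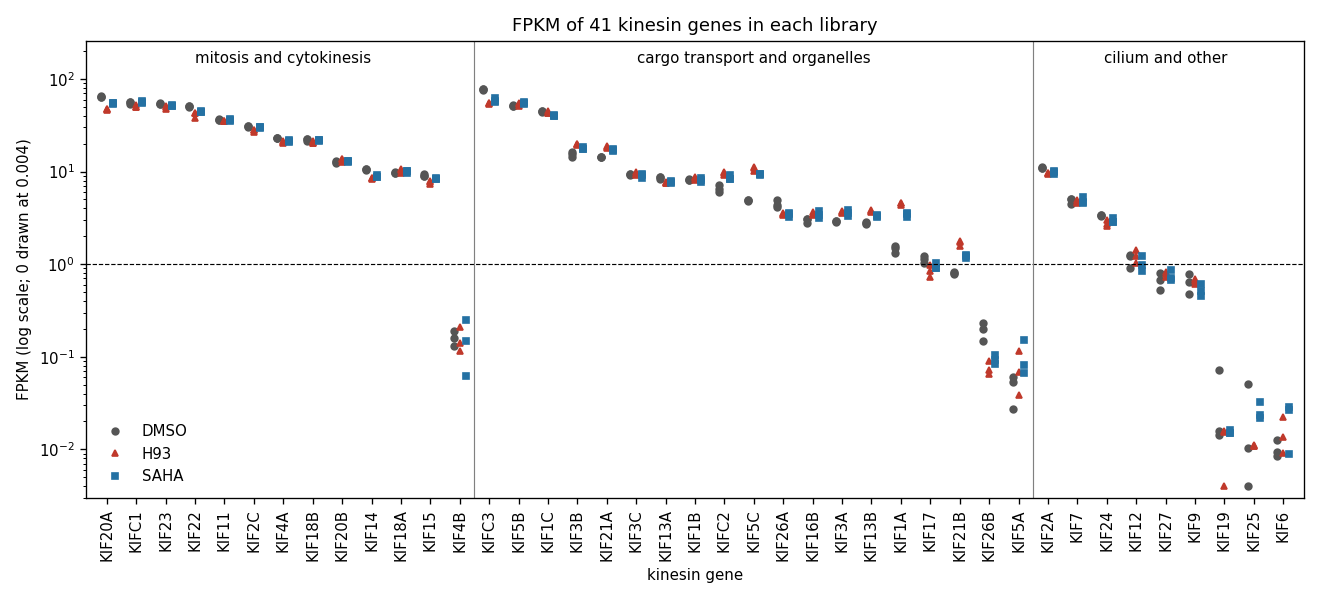
FPKM (log scale) of each of the 41 kinesin genes in each of the 9 libraries, by known role and then by mean level, with the dashed line at an FPKM of 1 and values of 0 drawn at 0.004. KIF1A and KIF5C show wide gaps between DMSO and treated libraries, KIF21B crosses the line between them, and 8 genes lie under it in every library.

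Of the 41 genes, 33 were tested, having 3 or more of the 9 libraries with an FPKM of 1 or above. KIF21B passed that filter only through treated libraries, since all 3 DMSO libraries were under 1, and KIF17 could pass through its DMSO libraries alone. Their differences from DMSO are therefore given as descriptions. The counts of kinesins called against DMSO are repeated without them, a choice made after the data were seen. The 8 genes not tested were KIF4B, KIF5A, KIF6, KIF9, KIF19, KIF25, KIF26B and KIF27. KIF9 (0.458 to 0.775) and KIF27 (0.526 to 0.863), both linked to cilia, were the highest of these. KIF6, KIF19 and KIF25 stayed under 0.1 in every library, and the neuronal heavy chain KIF5A reached at most 0.153. KIF26B stood at 0.149 to 0.233 in DMSO, above the 0.0654 to 0.105 of all treated libraries. KIF4B, a near-identical copy of KIF4A, lay between 0.0626 and 0.251, and reads may have been split between the 2 copies.

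The comparison of H93 with DMSO asked what the UHRF1-directed compound changed relative to solvent. Transport motors changed by the most: KIF1A rose 3.09-fold in mean FPKM and KIF5C 2.19-fold, while KIFC3 fell by 29.2% and the cytokinesis motor KIF20A by 27.5%. In limma on log2(FPKM + 1), with adjustment over 11525 kept genes, 9 of 33 kinesin genes rose (27.3%) and 15 fell (45.5%), or 8 and 14 of 31 without KIF21B and KIF17. Among all kept genes 34.9% rose and 35.0% fell, so the kinesins called in either direction (24 of 33, 72.7%) lay near the background of 69.8%. The H93 and DMSO libraries did not overlap for 25 of the 33, KIF21B and KIF17 among them, against 73.2% of all kept genes. With a log2 difference of at least 0.4 as well, 6 of the 33 were called, KIF21B among them, where the share over all kept genes was 22.0%.

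All 9 genes called higher with H93, KIF21B among them, were in the transport class, and 9 of the 15 that fell were motors of division. The transport class holds KIF3A, KIF3B and KIF17, which also serve cilia, and KIF26A, which lacks motor activity. With KIF3A and KIF3B, both called higher, placed in the remaining class, the rise would not be confined to the transport class. Among the 12 tested genes of mitosis and cytokinesis 0 rose and 9 fell (75%), with a median log2 difference of -0.14. Among the 17 tested transport genes 9 rose and 4 fell, with a median of 0.18. KIF21B was counted among the 9 and KIF17 among the 4, and the median included both. Of the 4 tested genes of the remaining class 0 rose and 2 fell. The median over all 11525 genes was 0.00.

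**Figure D2:**
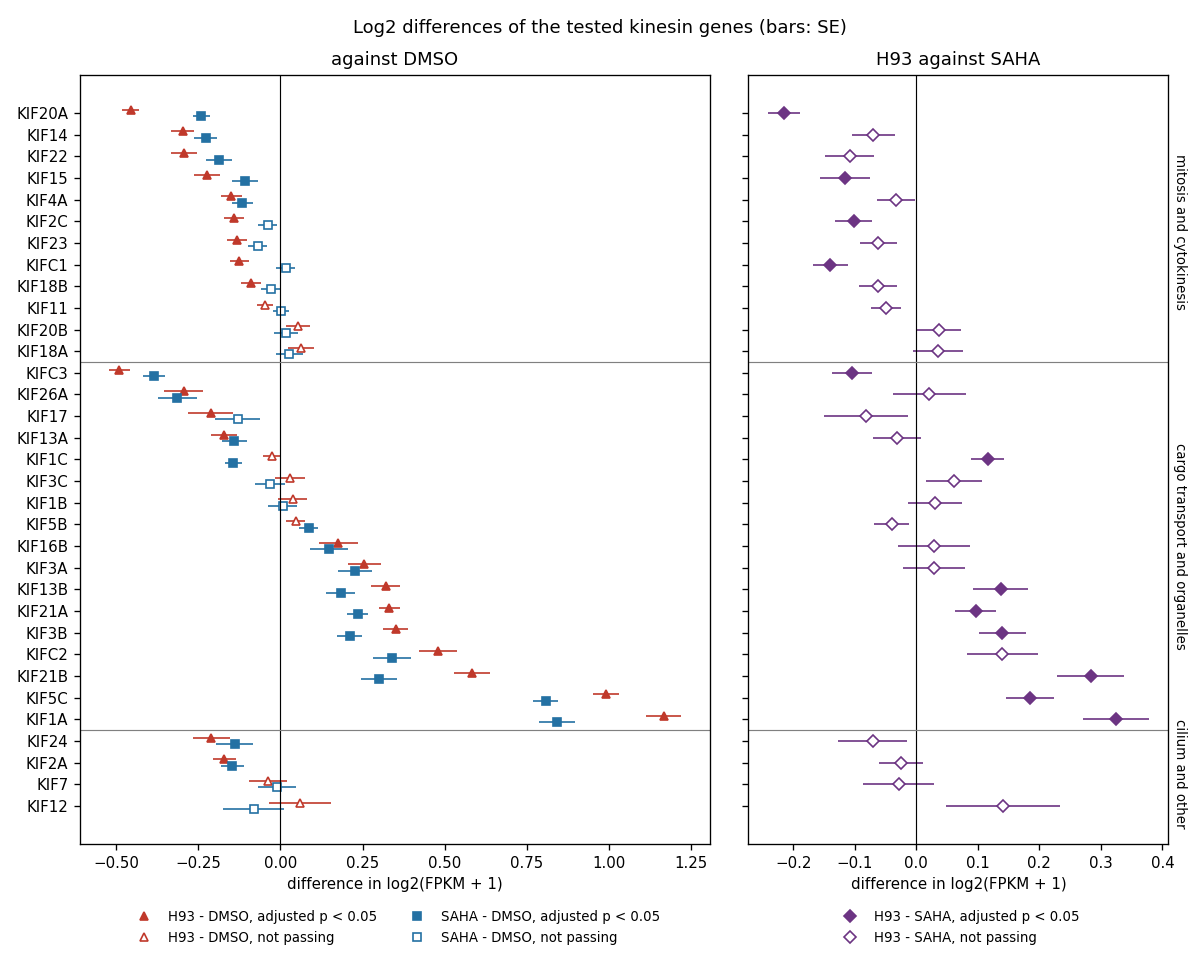
Differences in log2(FPKM + 1) with their SE for the 33 tested kinesin genes, against DMSO on the left and H93 against SAHA on the right; filled symbols have a limma adjusted p under 0.05. The dividing-cell motors lie at or left of 0 against DMSO apart from small differences that did not pass, and the transport motors reach from KIFC3 (-0.49 in H93) to KIF1A (1.17 in H93).

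The second comparison set SAHA against the same DMSO libraries, so the 2 comparisons are not independent. KIF1A rose 2.33-fold with SAHA and KIF5C 1.90-fold, KIFC3 fell by 23.7% and KIF20A by 15.6%. In limma 10 of the 33 kinesin genes rose and 11 fell (9 and 11 of 31 without KIF21B and KIF17), where 27.4% of all kept genes rose and 31.4% fell. Called in either direction were 21 of 33 (63.6%), beside 58.8% of all kept genes. Libraries did not overlap for 22 of the 33, KIF21B among them, beside 64.1% of all kept genes. At a log2 difference of at least 0.4 there were 2 called genes, KIF1A and KIF5C, beside 12.7% of all kept genes. In the dividing-cell class 0 rose and 5 of 12 fell, with a median of -0.05. In the transport class 10 of 17 rose and 4 fell, with a median of 0.15. KIF21B was counted among the 10, KIF17 was not called, and the transport median included both. The all-gene median was -0.01.

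H93 and SAHA were also compared directly, at unequal doses of 20 µM and 500 nM. The kinesins that differed did so by little: KIF1A was 1.33-fold and KIF21B 1.40-fold higher with H93, and KIF20A was lower by 14.1%. In limma 7 of the 33 genes were higher and 5 lower in H93 than in SAHA, where 17.6% of all kept genes were higher and 13.9% lower. On the log2(FPKM + 1) scale no kinesin reached a difference of 0.4, which 0.998% of all kept genes did with an adjusted p under 0.05. That scale understates changes of low values: the log2 ratio of mean FPKM was 0.41 for KIF1A and 0.48 for KIF21B. Libraries did not overlap for 17 of the 33, beside 44.4% of all kept genes. All 7 that were higher with H93 were in the transport class, KIF3B among them, and 4 of the 5 lower ones were motors of division. These counts were sensitive to single libraries: without H93 replicate 2 they were 4 higher and 2 lower, and 3 were lower without any 1 of the SAHA libraries.

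Among the motors of division, KIF20A had the largest difference. Also called MKLP2, it delivers the chromosomal passenger complex to the central spindle, and its gene lies at chr5:138178719-138187715 in GENCODE release 29 (GRCh38). Its FPKM was 65.6, 63.9 and 64.3 in the DMSO libraries, 46.9, 47.8 and 45.8 in H93, and 55.6, 53.2 and 54.9 in SAHA. The 3 groups did not overlap, with H93 lowest and SAHA between. In limma the log2 difference from DMSO was -0.46 (SE 0.0266, adjusted p = 1.43e-08) for H93 and -0.24 (adjusted p = 8.22e-06) for SAHA. H93 was below SAHA by -0.22 (limma adjusted p = 0.000172).

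KIFC1, or HSET, is a minus-end motor that focuses spindle poles and clusters extra centrosomes. Its FPKM was 56.4, 53.9 and 56.3 in DMSO, 50.4, 49.9 and 52.1 in H93, and 54.9, 56.1 and 57.3 in SAHA. Every H93 library was below every library of the other groups, and SAHA overlapped DMSO. The log2 difference was -0.12 for H93 (SE 0.0285, limma adjusted p = 0.00176) and 0.02 for SAHA (limma adjusted p = 0.666), and H93 was below SAHA by -0.14 (limma adjusted p = 0.00345).

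The other motors of division differed by less than KIF20A on the log2(FPKM + 1) scale, although in mean FPKM with SAHA KIF14 fell by 16.0% and KIF20A by 15.6%. KIF14, which acts at the midbody with the bundling protein PRC1 and citron kinase, fell from 10.6 to 8.48 with H93 and to 8.95 with SAHA. KIF22, a chromosome-bound motor that pushes chromosome arms outward, fell from 50.7 to 41.2 and 44.4. KIF15, which helps to keep the spindle bipolar, fell from 9.10 to 7.65 and 8.37. KIF4A, a chromosome-bound motor that limits the length of central spindle microtubules, fell from 23.1 to 20.8 and 21.3. The call for KIF15 with SAHA (limma adjusted p = 0.0368) was lost without any 1 of DMSO replicates 2 and 3 or the SAHA libraries, with adjusted p between 0.0505 and 0.126, and under median-ratio rescaling (0.0607) or quantile normalization (0.0671).

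A further 3 fell with H93 without passing for SAHA in limma. These were KIF2C, the depolymerase MCAK (30.7 to 27.8, with SAHA at 29.8), KIF23, the motor of the centralspindlin complex (54.3 to 49.5, with SAHA at 51.7), and KIF18B, which trims astral microtubules (22.2 to 20.8, with SAHA at 21.7). In the direct comparison H93 was below SAHA for KIF2C (limma adjusted p = 0.0229), while KIF23 (0.136) and KIF18B (0.145) did not pass. KIF2C lost that call without H93 replicate 2 (0.0957), SAHA replicate 2 (0.0646) or SAHA replicate 3 (0.0595). KIF18B lost its call against DMSO without DMSO replicate 1 or 2 or H93 replicate 1 or 2, with limma adjusted p between 0.057 and 0.0832. KIF23 passed for SAHA without H93 replicate 3 (0.0385) or SAHA replicate 2 (0.0416).

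KIF11, KIF18A and KIF20B did not pass against DMSO with either compound in limma. KIF11, or Eg5, slides spindle poles apart and stood at 36.2 in DMSO, 35.0 in H93 and 36.3 in SAHA. KIF18A, which dampens chromosome movement at the metaphase plate, stood at 9.79, 10.3 and 10.0, and KIF20B, which acts in late cytokinesis, at 12.7, 13.2 and 12.9. Without H93 replicate 3 both KIF18A (limma adjusted p = 0.0488) and KIF20B (0.0484) passed as higher with H93. CENPE, a kinetochore kinesin whose symbol lies outside the naming rule, was at 15.8, 16.3 and 16.1 and did not pass either (limma adjusted p = 0.241 for H93 and 0.475 for SAHA); it was singled out after its values were seen.

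**Figure D3:**
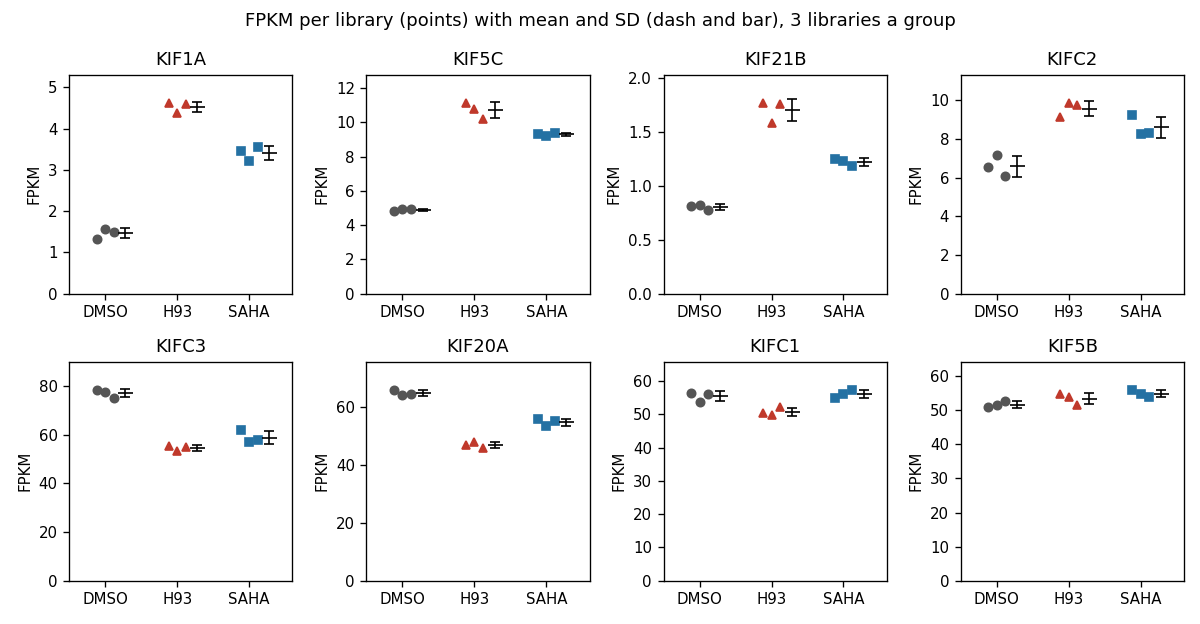
FPKM per library (points) with the group mean and SD for the 6 kinesin genes with an adjusted p under 0.05 and a log2 difference of at least 0.4 against DMSO, and for KIFC1 and KIF5B, which complete the 4 most abundant kinesins. All treated libraries lie above DMSO for KIF1A, KIF5C, KIF21B and KIFC2 and below it for KIFC3 and KIF20A. KIF21B, among the 6, passed the expression filter only through treated libraries, so its difference from DMSO is a description and not a test.

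Most promoters of the division motors hold 2 short sequence elements known from cell cycle genes. They are shown because 9 of the 12 tested division motors fell with H93 and 0 rose, beside 35.0% and 34.9% of all kept genes. With SAHA 5 of the 12 fell, beside 31.4% of all kept genes. RefSeq promoter windows of 300 bases (250 before to 50 after the transcript start, GRCh38.p14) were matched for 33 of the 41 kinesin genes. They were searched on both strands for the CHR, taken as TTTGAA or TTCGAA, and for CCAAT, the box bound by NF-Y. No CHR match overlapped a CCAAT match in these windows. A CHR was found in 11 of 13 division motors (84.6%, the untested KIF4B among them), in 1 of 13 transport motors (KIF5B) and in 1 of 7 of the remaining class (KIF24). It was in 19.5% of the 27305 genes with a window (16.4% of 35116 windows), and in 14.9% of the 9391 kept genes that had one. A CCAAT was found in 84.6% of the division motors and in 39.7% of all genes with a window (34.6% of windows). Both elements were in 76.9% and 7.85% of genes (6.38% of windows). Each of these division-motor shares counts KIF4B, a near-identical copy of KIF4A, as a separate gene. Below are 30 bases around the match for the 10 tested division motors that hold one, 5′ to 3′ on the coding strand, with the CHR in capitals (TTCAAA is TTTGAA read on the other strand).
KIF14: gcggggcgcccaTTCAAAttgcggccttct
KIF22: ggcaccggggaaTTCGAAtgggagaggcgg
KIF15: ccaagcgccaaaTTCAAAtttgcggccatc
KIF4A: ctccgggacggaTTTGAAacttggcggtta
KIF23: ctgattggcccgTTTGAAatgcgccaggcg
KIFC1: tggccgttggaaTTCAAAagtggcgggtgt
KIF18B: ccgcccggctaaTTTGAAcgcaaggcgccg
KIF11: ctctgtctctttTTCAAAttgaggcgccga
KIF18A: aagtggcttgggTTTGAAtattgtggttga
KIF20B: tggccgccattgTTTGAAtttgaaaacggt

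These stretches lie at chr1:200620733-200620762 (KIF14, minus strand), chr16:29790712-29790741 (KIF22, plus), chr3:44761747-44761776 (KIF15, plus), chrX:70290058-70290087 (KIF4A, plus) and chr15:69414282-69414311 (KIF23, plus). The others lie at chr6:33391815-33391844 (KIFC1, plus), chr17:44947754-44947783 (KIF18B, minus), chr10:92593090-92593119 (KIF11, plus), chr11:28108149-28108178 (KIF18A, minus) and chr10:89701602-89701631 (KIF20B, plus). The matches in capitals began between 55 bases before and 25 bases after the RefSeq start. KIF20B holds a second match directly after it, from base 31, and the KIF22 match also falls at base -244 from a second RefSeq start. The first 7 genes listed fell with H93 in limma and the last 3 did not pass. KIF20A and KIF2C, which both fell, had no match in this window, and sequence outside it was not searched. The median log2 difference for H93 was -0.13 over the 10 tested genes with a match and -0.30 over the 2 without. Those 2 were unlike, with KIF20A at -0.46 and KIF2C at -0.14, near the median of the genes with a match. Whether a match goes with the size of the difference was not tested.

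Longer stretches show the elements in place for a division motor that fell, for one that did not pass, and for the 2 transport motors that rose most. Each runs from 100 bases before to base 10 of the RefSeq transcript (GRCh38.p14), with CHR and CCAAT matches in capitals (ATTGG is CCAAT read on the other strand). KIF14 is at chr1:200620742-200620851 on the minus strand, KIF11 at chr10:92593030-92593139 on the plus strand, KIF1A at chr2:240821394-240821503 on the minus strand and KIF5C at chr2:148875127-148875236 on the plus strand.
KIF14: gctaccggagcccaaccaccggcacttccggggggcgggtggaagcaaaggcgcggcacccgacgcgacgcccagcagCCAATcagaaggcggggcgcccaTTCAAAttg
KIF11: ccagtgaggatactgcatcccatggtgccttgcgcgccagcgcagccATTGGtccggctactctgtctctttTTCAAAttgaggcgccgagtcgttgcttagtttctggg
KIF1A: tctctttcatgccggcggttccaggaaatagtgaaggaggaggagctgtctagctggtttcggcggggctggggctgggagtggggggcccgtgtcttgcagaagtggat
KIF5C: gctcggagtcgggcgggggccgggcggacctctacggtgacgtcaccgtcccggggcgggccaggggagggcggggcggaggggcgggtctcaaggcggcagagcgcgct

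KIF14 and KIF11 each carry 1 CHR and 1 CCAAT in these stretches, although KIF14 fell and KIF11 did not pass. The printed stretches of KIF1A and KIF5C hold neither element, and the 300-base window of KIF5C holds a CCAAT farther upstream, at bases -222 to -218. Whether any factor occupied these promoters was not measured.

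**Figure D4:**
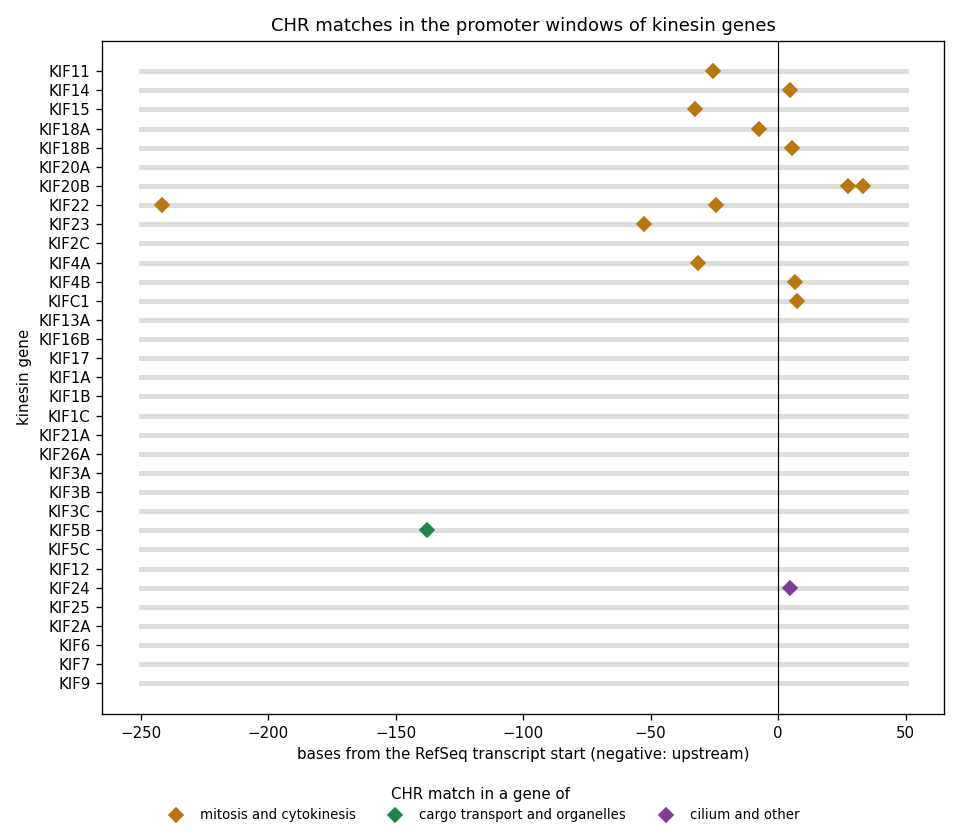
Positions of CHR matches in the RefSeq promoter windows of 33 kinesin genes, in bases from the transcript start, with grey bars for the 300-base windows. Matches lie near the start in most division motors and in KIF24, and at base -140 in KIF5B; the 2 points of KIF22 are 1 genomic site seen from 2 starts.

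Partner genes of the spindle were counted from fixed lists, without a test of the lists. Of 17 tested spindle assembly and kinetochore genes 12 fell and 2 rose with H93, and 6 fell and 2 rose with SAHA, with median log2 differences of -0.11 and -0.01. All kept genes fell in 35.0% and rose in 34.9% of cases with H93, and in 31.4% and 27.4% with SAHA, which is the background for each list here. The kinetochore protein CENPF fell from 31.1 ± 0.0463 to 22.8 ± 0.285 with H93 and 25.7 ± 1.29 with SAHA, and the checkpoint kinase BUB1B from 45.4 ± 0.556 to 35.9 ± 1.04 and 42.4 ± 0.889. SKA3, of the complex that couples kinetochores to microtubules, fell from 11.2 ± 0.600 to 8.74 ± 0.303 and 9.94 ± 0.340. Of 10 partners at the central spindle 5 fell and 2 rose with H93, whereas 1 fell and 4 rose with SAHA, with medians of -0.07 and 0.05 (50% and 10% lower, 20% and 40% higher). AURKB, the kinase of the passenger complex that KIF20A carries, stood at 69.2 ± 1.98 in DMSO, fell to 61.4 ± 0.264 with H93 and rose to 74.8 ± 0.836 with SAHA. H93 was below SAHA for AURKB by -0.28 (limma adjusted p = 2.7e-05). ECT2, the exchange factor that starts furrowing, fell from 66.8 ± 1.25 to 51.8 ± 1.29 and 56.2 ± 1.32, while the abscission protein CEP55 rose from 70.9 ± 1.21 to 79.6 ± 2.45 and 79.9 ± 3.19.

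Markers of proliferation fell in the same libraries. Of 7 such genes 6 fell and 1 rose with H93, and 5 fell and 1 rose with SAHA, with medians of -0.28 and -0.14. Cyclin CCNB1 went from 102 ± 0.747 to 75.1 ± 1.30 and 86.8 ± 2.89, MKI67 from 58.1 ± 0.740 to 46.4 ± 1.25 and 52.8 ± 1.03, and CCNA2 from 37.5 ± 2.09 to 30.6 ± 0.487 and 31.5 ± 1.54. The part of proliferation in the kinesin differences was not tested, and in bulk RNA fewer dividing cells and less RNA per cell cannot be told apart. Among 19 regulators of cell cycle genes 8 fell and 4 rose with H93, and 6 fell and 1 rose with SAHA, with medians of -0.07 and -0.06. The shares that fell, 42.1% and 31.6%, lay near those of all kept genes. The shares that rose, 21.1% and 5.26%, lay below the 34.9% and 27.4% of all kept genes, and the list was not tested. MYBL2, the MMB component, fell from 118 ± 1.90 to 72.9 ± 2.97 and 89.7 ± 2.57, and the inhibitor CDKN1A rose from 20.8 ± 1.33 to 80.6 ± 0.734 and 63.4 ± 1.35.

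KIF1A had the largest rise among transport motors. It is a kinesin-3 motor best known for carrying synaptic vesicle precursors and dense core vesicles along axons, and its gene lies at chr2:240713761-240821036 in GENCODE release 29 (GRCh38). Its FPKM was 1.33, 1.57 and 1.496 in the DMSO libraries, 4.61, 4.38 and 4.59 in H93, and 3.47, 3.22 and 3.56 in SAHA. The groups did not overlap, with DMSO lowest and H93 highest. The log2 difference was 1.17 for H93 (SE 0.0541, limma adjusted p = 2.02e-09) and 0.84 for SAHA (limma adjusted p = 7.59e-08), on a scale that understates changes of low values. H93 exceeded SAHA by 0.32 (limma adjusted p = 0.00107).

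KIF5C is 1 of the 3 heavy chains of conventional kinesin, the kinesin-1 motor, and is known as the form enriched in neurons; the gene lies at chr2:148875250-149026759. Its FPKM was 4.82, 4.93 and 4.92 in DMSO, 11.1, 10.8 and 10.2 in H93, and 9.34, 9.19 and 9.37 in SAHA. All treated libraries lay above DMSO and all H93 libraries above SAHA. The log2 difference was 0.99 for H93 (SE 0.039, limma adjusted p = 4.91e-10) and 0.81 for SAHA (limma adjusted p = 6.26e-09), and H93 exceeded SAHA by 0.18 (limma adjusted p = 0.00431).

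KIF5B, the heavy chain found in most tissues, differed far less. Its FPKM was 50.9, 51.5 and 52.8 in DMSO, 54.7, 54.0 and 51.7 in H93, and 56.0, 54.8 and 54.1 in SAHA. H93 overlapped DMSO through replicate 3, and SAHA lay just above DMSO. It did not pass for H93 (log2 difference 0.05, limma adjusted p = 0.163) and passed for SAHA (0.09, limma adjusted p = 0.0195). Without H93 replicate 3 it passed for H93 (0.0482), and for SAHA it was lost without DMSO replicate 1 (0.0702), DMSO replicate 2 (0.0541) or SAHA replicate 1 (0.0678).

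Since KIF5C rose more than KIF5B, the makeup of kinesin-1 shifted. KIF5C made up 8.63% ± 0.108 of the summed kinesin-1 FPKM in DMSO, 16.7% ± 0.175 in H93 and 14.5% ± 0.243 in SAHA (SD, n = 3). KIF5B still held 91.3%, 83.2% and 85.4%. Within kinesin-3, KIF1A went from 1.85% ± 0.154 to 5.66% ± 0.158 and 4.53% ± 0.257. Within kinesin-4 the share of the division motor KIF4A went from 52.5% to 44.6% and 46.9%, and that of KIF21A from 32.7% to 39.6% and 37.8%. These shares follow from the values above and are no separate test.

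**Figure D5:**
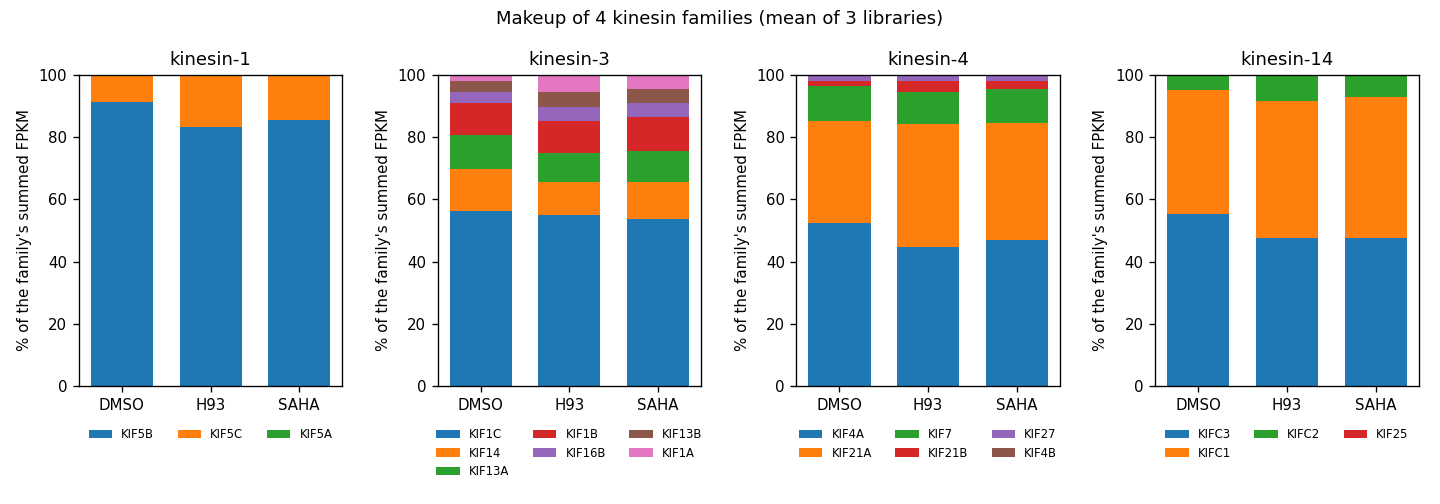
Mean share of each gene in the summed FPKM of 4 kinesin families, in percent, by group (3 libraries each); KIF5A, KIF4B and KIF25 are too small to be visible. KIF5C grows from 8.63% of kinesin-1 in DMSO to 16.7% in H93, and KIFC3 shrinks from 55.4% to 47.5% of kinesin-14.

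KIF21B and its paralogue KIF21A slow the growth of microtubule ends. For KIF21B the FPKM was 0.810, 0.825 and 0.774 in DMSO, 1.76, 1.58 and 1.75 in H93, and 1.25, 1.23 and 1.18 in SAHA. All 3 groups were apart, but the gene passed the filter only through its treated libraries, so no test against DMSO is given. The log2 differences from DMSO were 0.58 for H93 and 0.30 for SAHA. Between the treated groups, which both passed, H93 exceeded SAHA by 0.28 (limma adjusted p = 0.00258). KIF21A, expressed at a higher level, rose from 14.4 to 18.4 with H93 and 17.2 with SAHA.

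The minus-end motors KIFC2 and KIFC3 went opposite ways. KIFC2 is known from neurons, where it serves transport in dendrites and axons. Its FPKM was 6.55, 7.17 and 6.06 in DMSO, 9.13, 9.85 and 9.76 in H93, and 9.24, 8.25 and 8.32 in SAHA. Treated libraries were all above DMSO, and H93 and SAHA overlapped. The log2 difference was 0.48 for H93 (SE 0.0582, limma adjusted p = 1.08e-05) and 0.34 for SAHA (limma adjusted p = 0.000298). The 2 compounds differed by 0.14 without passing (limma adjusted p = 0.0859), which became 0.0386 without SAHA replicate 1.

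KIFC3, the most abundant kinesin in DMSO, is known for apical transport in epithelial cells and for a role at adherens junctions; the gene lies at chr16:57758217-57863053. Its FPKM was 78.4, 77.8 and 75.2 in DMSO, 55.4, 53.4 and 55.2 in H93, and 61.9, 57.0 and 57.7 in SAHA. All treated libraries were below DMSO, and H93 lay below SAHA. The log2 difference was -0.49 for H93 (SE 0.0327, limma adjusted p = 4.76e-08) and -0.38 for SAHA (limma adjusted p = 8.31e-07). H93 was below SAHA by -0.11 (limma adjusted p = 0.0285). That call was lost without H93 replicate 2 (0.103) or SAHA replicate 1 (0.0988), and with no filter on low values (0.0564). CDH1, whose product builds those junctions, was lower in the same libraries, by the means given above. Whether the KIFC3 and CDH1 differences are linked was not tested. Among the other epithelial markers EPCAM was also lower in mean, KRT8 and KRT19 were higher, and KRT18 was lower with H93 and higher with SAHA.

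Among the other transport motors, the kinesin-2 genes that power intraflagellar transport rose. KIF3A went from 2.92 to 3.68 with H93 and 3.59 with SAHA, and KIF3B from 15.3 to 19.8 and 17.9. KIF3C, an alternative partner of KIF3A, stood at 9.31, 9.53 and 9.09 and did not pass. KIF17, the homodimeric kinesin-2 of cilia and dendrites, stood at 1.13 in DMSO, 0.844 in H93 and 0.950 in SAHA. No test against DMSO is given for it, since it could pass the filter through DMSO alone.

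The endosomal motors of kinesin-3 were split. KIF13B rose from 2.81 to 3.75 with H93 and 3.32 with SAHA, and its paralogue KIF13A, a motor of recycling endosomes, fell from 8.59 to 7.51 and 7.70. KIF16B, which moves early endosomes, stood at 2.98, 3.50 and 3.42 and passed with both (limma adjusted p = 0.0172 and 0.0459). Its H93 call was lost without DMSO replicate 1 (0.074) or H93 replicate 2 (0.0599), and its SAHA call was lost without any 1 of 8 libraries, with adjusted p from 0.0532 to 0.185, and with no filter (0.0777), quantile normalization (0.0574) or only the 6 libraries compared (0.0666). KIF1C, a motor of vesicles and mRNA, fell with SAHA from 44.8 to 40.4. It stood at 43.9 in H93 without passing there, and was higher in H93 than in SAHA (0.12, limma adjusted p = 0.00691). KIF1B, which carries mitochondria and vesicles, stood at 8.15, 8.39 and 8.20 and did not pass. KIF26A, an atypical kinesin without motor activity, fell from 4.51 to 3.49 and 3.43.

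In the remaining class, KIF2A, a depolymerase of spindle poles and growing neurites, fell from 10.9 to 9.61 with H93 and 9.80 with SAHA. KIF2A was not counted as a division motor despite its place at spindle poles, and its promoter window held neither a CHR nor a CCAAT. KIF24, which acts on the mother centriole and holds back cilium formation, fell from 3.35 to 2.77 and 2.95. Its SAHA call (limma adjusted p = 0.047) was lost without any 1 of 6 libraries, with adjusted p from 0.0565 to 0.132, and with a pseudocount of 0.1 (0.051), no filter (0.0713) or median-ratio rescaling (0.0637). KIF7, a regulator of Hedgehog signalling at the cilium tip, stood at 4.88, 4.71 and 4.84, and KIF12 at 1.14, 1.23 and 1.02. Neither passed.

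Proteins that link kinesins to cargo were followed through their transcripts. Of 16 tested light chains, adaptors and binding partners 11 rose and 3 fell with H93, with a median log2 difference of 0.17, and 9 rose and 3 fell with SAHA, with a median of 0.16. The shares that rose were 68.8% and 56.2%, beside 34.9% and 27.4% of all kept genes, and the list was not tested. KIFAP3, the third subunit of the KIF3A and KIF3B motor, rose from 2.75 ± 0.120 in DMSO to 4.66 ± 0.276 with H93 and 3.57 ± 0.569 with SAHA. TRAK2, which ties kinesin-1 to mitochondria, rose from 8.61 ± 0.218 to 13.01 ± 0.430 and 11.6 ± 0.513. MAPK8IP1, or JIP1, a scaffold that binds kinesin light chain, rose from 7.27 ± 0.631 to 10.7 ± 0.726 and 8.79 ± 0.517.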

How the data were processed

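The authors deposited FPKM per gene and library for 9 libraries, with RNA taken by TRIzol and a stranded mRNA kit per the labels' protocols. Per the submitters' processing notes Trimmomatic 0.36, HISAT2, Cufflinks and GRCh38.p13 were used, without roles. Neither annotation nor strand use is stated: both were not given in the sources used here. All 9 value columns were matched to samples by name.

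Genes needed 3 of the 9 libraries with an FPKM of 1 or above, which kept 11525 of 16772, and were put on the log2(FPKM + 1) scale, as are all differences. All 9 libraries entered 1 limma fit (version 3.58.1, R 4.3.3) of group means, with variances moderated toward a trend on the mean (degrees of freedom: 6 residual, 6.05 prior). Each comparison was tested two-sided, p-values were adjusted by Benjamini-Hochberg across its 11525 kept genes, and a gene rose or fell at an adjusted p under 0.05. With 3 libraries a group no single gene was tested by permutation. The fit was tested on simulated data: with 200 of 11525 genes altered between simulated H93 and DMSO libraries, it found 52% at a 1.2-fold, 94% at a 1.5-fold and 100% at a 2-fold change, and 2.26% of its calls were false.

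Values per library are given for kinesins called against DMSO (adjusted p under 0.05) whose log2 difference was 0.4 or more in size, and for the 4 of highest mean FPKM. Up to 3 genes a partner list are named, those with the largest absolute difference for H93. Some marker and regulator genes are not reported here. The members, lists and rules were chosen with earlier results of these data known. Alternatives were pseudocounts of 0.1 and 5, no filter, a filter at a mean FPKM of 5, median-ratio and quantile scaling, robust moderation, only the 6 libraries compared, a replicate block, and leaving out each library. Same-numbered libraries did not deviate together (correlations of -0.0975 to 0.0355), so no pairing was used. Promoter windows were RefSeq's, scanned in Python 3.11.15. Figures used matplotlib 3.10.9.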

Additional observations from a re-analysis of the deposited data

How the results depend on the processing

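The main limits are 3 libraries a group, an unknown absolute depth, and differences of under 20% for many kinesins. The simulated test found 52% of genes changed 1.2-fold, and smaller changes were not simulated. It altered 200 of 11525 genes, whereas 69.8% of kept genes were called for H93 against DMSO. The adjustment depends on that share, so the simulated shares of changes found and of false calls need not hold for these data. No called kinesin changed direction under any alternative run, and neither scaling moved the median of all kept genes by as much as 0.1. Of the recomputed kinesin counts 105 stayed within 1.5 times the reported one and 9 did not. With a mean FPKM of at least 5, which left 23 kinesins to test, 4 rose with H93, 5 rose with SAHA and 4 were higher in H93 than in SAHA. With no filter on low values 3 were lower in H93 than in SAHA. Leaving out 1 library at a time gave 8 to 12 higher and 13 to 15 lower for H93, 8 to 9 higher and 9 to 11 lower for SAHA, and 4 to 8 higher and 2 to 6 lower for H93 against SAHA. With the replicate number as a block, 9 kinesins rose and 15 fell with H93, and KIF24 with SAHA (0.0706) and KIF13B and KIF15 between the compounds (0.0575 and 0.0549) lost their calls; the numbers do not pair the libraries. Differences that changed sign belonged to genes that did not pass. Leaving out single libraries, they ran for H93 against DMSO from -0.0185 to 0.127 for KIF12 and -0.00207 to 0.0513 for KIF3C. For SAHA against DMSO they ran from -0.0100 to 0.0137 for KIF11, -0.0263 to 0.0408 for KIF1B, -0.0601 to 0.0113 for KIF3C, -0.0607 to 0.0178 for KIF7 and -0.00602 to 0.0305 for KIFC1. For H93 against SAHA they ran from -0.0185 to 0.0793 for KIF16B, -0.00403 to 0.0631 for KIF1B, -0.0112 to 0.0458 for KIF26A, -0.0116 to 0.0667 for KIF3A and -0.0567 to 0.0218 for KIF7. KIF7 with SAHA was 0.00195 under median-ratio rescaling, and KIF26A between the compounds was -0.00185 under quantile normalization. Between the compounds KIF21A, KIF13B and KIF15 lost their calls without most single libraries, KIF3B without H93 replicate 2 (0.0521), and KIF22 passed under median-ratio rescaling (0.0358).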

Other observations

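Dynein, the minus-end counterpart of the transport kinesins, and its cofactor dynactin were measured through 20 genes, of which 18 were tested. Of these, 11 rose and 3 fell with H93, with a median log2 difference of 0.17, and 11 rose and 3 fell with SAHA, with a median of 0.12, beside all-gene medians of 0.00 and -0.01. Of all kept genes 34.9% rose and 35.0% fell with H93, and 27.4% and 31.4% with SAHA; the list was not tested. DYNLT3, a dynein light chain, rose from 10.4 ± 0.633 in DMSO to 17.5 ± 0.492 with H93 and 15.3 ± 0.487 with SAHA (SD, n = 3). The dynactin subunit DCTN3 rose from 33.5 ± 1.55 to 52.8 ± 1.82 and 42.8 ± 1.25. DYNC1H1, the heavy chain that carries the motor activity, rose from 103 ± 0.218 to 141 ± 2.72 and 134 ± 3.79. All 3 were higher in H93 than in SAHA (limma adjusted p = 0.00795, 0.000197 and 0.0369 in that order).

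The promoter search was also run on the partner lists. A CHR was found in 7 of 8 central spindle partners and in 11 of 13 spindle and kinetochore partners that had a window. Proliferation markers held one in 4 of 7 genes and regulators of cell cycle genes in 5 of 16. It was in 1 of 17 dynein and dynactin genes and 0 of 12 kinesin light chains and adaptors. The share was 19.5% of all genes with a window and 14.9% of kept genes with one.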
